A study of Mus musculus with 15 samples.

Results

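Pecam1, Cdh5, Kdr, Tek, Vwf, Emcn, Adgrl4, Dll4, Notch4 and Cd300lg are 10 genes typical of the cells that line blood vessels. They were read here in cultures of mouse mammary epithelial organoids, as a sign of cells other than the epithelium. Each was taken as the row of the deposited count table that carries its name, so the 10 genes are 10 of 54456. The study looked for an epithelial-mesenchymal transition while mammary epithelium migrates as a group, and placed organoids beside beads soaked in FGF10, a fibroblast growth factor, or in bovine serum albumin (BSA). The 5 groups of 3 libraries were FGF10 at 36 h, FGF10 at 72 h, BSA at 36 h, BSA at 72 h and the cultures at 0 h. All came from wild-type mammary gland, labelled as epithelial cells and grown in DMEM/F12 with ITS. The labels give no strain, age, sex or number of animals, and no bead for 0 h. Nothing says that libraries came from separate cultures, so the spread between them may be technical. The titles name the factor of the FGF10 72 h group as FGF0, and its treatment label, FGF10, was followed.

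Blood vessel endothelium is a sheet of flat cells held together by VE-cadherin, the product of Cdh5, and by PECAM1. Its growth depends on vascular endothelial growth factor (VEGF) acting on the receptor encoded by Kdr and on angiopoietins acting on the receptor encoded by Tek. NOTCH signalling, with Dll4 as a ligand and Notch4 as a receptor of endothelial cells, sorts sprouting cells into leading and following ones. In the mammary gland, vessels run in the fat pad around the ducts, and they are not part of the epithelium.

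The genes lie on 8 chromosomes in GRCm39, the build of the count table. Vwf spans positions 125523737 to 125663642 of chromosome 6 and has 16064 bases of exon, against 2737 for Cd300lg, the shortest. Exons of 9 of the genes overlap no other annotated gene, and 214 exon bases of Dll4 (5.56%) are shared with Gm14207 on the opposite strand, whose reads the unstranded counting cannot tell apart. RefSeq promoter windows, 250 bases before to 50 after the gene's start in build GRCm38.p6, were available for 6 of the 10 genes. The windows of Emcn, Dll4 and Notch4 are shown because the results turn on these genes, Emcn for its wide spread between libraries and the NOTCH pair for its narrow one. Capitals mark AGGAAG on either strand, which reads CTTCCT where it lies on the other strand, a core sequence bound by ETS factors, a family that includes regulators of endothelial genes.
Emcn: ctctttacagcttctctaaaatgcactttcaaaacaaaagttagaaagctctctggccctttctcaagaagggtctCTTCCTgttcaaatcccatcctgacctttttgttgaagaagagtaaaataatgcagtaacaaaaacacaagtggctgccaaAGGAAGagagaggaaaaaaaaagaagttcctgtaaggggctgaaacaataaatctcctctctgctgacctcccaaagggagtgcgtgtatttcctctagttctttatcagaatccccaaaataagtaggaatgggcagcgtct
Dll4: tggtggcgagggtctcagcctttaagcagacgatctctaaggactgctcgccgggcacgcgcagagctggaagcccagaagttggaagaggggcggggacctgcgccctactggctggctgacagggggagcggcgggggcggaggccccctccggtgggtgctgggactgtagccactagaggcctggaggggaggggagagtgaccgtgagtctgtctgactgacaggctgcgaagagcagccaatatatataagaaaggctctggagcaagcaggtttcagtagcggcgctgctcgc
Notch4: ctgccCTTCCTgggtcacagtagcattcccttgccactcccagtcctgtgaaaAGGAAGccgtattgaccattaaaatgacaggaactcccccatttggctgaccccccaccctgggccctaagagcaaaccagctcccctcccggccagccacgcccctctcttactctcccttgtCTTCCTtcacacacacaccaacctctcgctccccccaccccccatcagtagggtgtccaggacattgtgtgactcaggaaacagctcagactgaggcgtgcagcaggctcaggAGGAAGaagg
The windows are chr3:137340828-137341127 on the plus strand for Emcn, chr2:119325534-119325833 on the plus strand for Dll4 and chr17:34564045-34564344 on the plus strand for Notch4. AGGAAG occurred 2 times in the Emcn window, 4 times in that of Notch4 and 1 time in that of Adgrl4. The windows of Dll4, Tek and Kdr held none. CGGAAG, a second ETS core that differs in its first base and so cannot match at the same place, was in none of the 6 windows. Of all 32851 windows of 300 bases, 35.4% held AGGAAG and 16.9% held CGGAAG, so 3 of 6 is a description only.

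The 10 genes were a small part of every library. Their summed level, in CPM, a gene's count scaled by the size of its library, was 6.21 to 15.9 in FGF10 cultures at 36 h and 11.5 to 43.8 in BSA cultures at 36 h. At 72 h the sum was 4.90 to 14.7 CPM in FGF10 cultures and 49.9 to 107 CPM in BSA cultures. At 0 h it was 48.9 to 232 CPM. The lowest BSA sum at 72 h was thus above the highest FGF10 sum at either time. The summed level of 10 epithelial genes was 17630 to 40200 CPM over the 15 libraries. In bulk RNA, fewer endothelial cells and less of their RNA per cell cannot be told apart.

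Some libraries stood apart within their group. Replicate 4 at 0 h had a sum of 48.9 CPM, against 167 and 232 CPM for replicates 1 and 2, and 7 of the genes, all but Dll4, Notch4 and Cd300lg, were lowest there by 2-fold or more. Replicate 2 was the highest library of BSA 36 h, with 43.8 CPM against 20.9 and 11.5 CPM. Replicate 2 was also the highest of FGF10 72 h, with 14.7 CPM against 4.90 and 5.91 CPM. Replicate 3 of BSA 72 h had 107 CPM, against 49.9 and 51.9 CPM in the libraries numbered 2_1 and 2_2, which share a number and may share a culture. Without these libraries the group means were 200 CPM at 0 h, 16.2 CPM for BSA 36 h, 5.40 CPM for FGF10 72 h and 50.9 CPM for BSA 72 h, against 149, 25.4, 8.50 and 69.8 CPM with them. Depth was 11965322 to 24261233 counts per library, and 3 counts over a group came to 0.0558 to 0.0684 CPM. All 10 genes passed the filter on low counts, Cd300lg only through its 0 h libraries, as did 18140 of all genes.

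**Figure D1:**
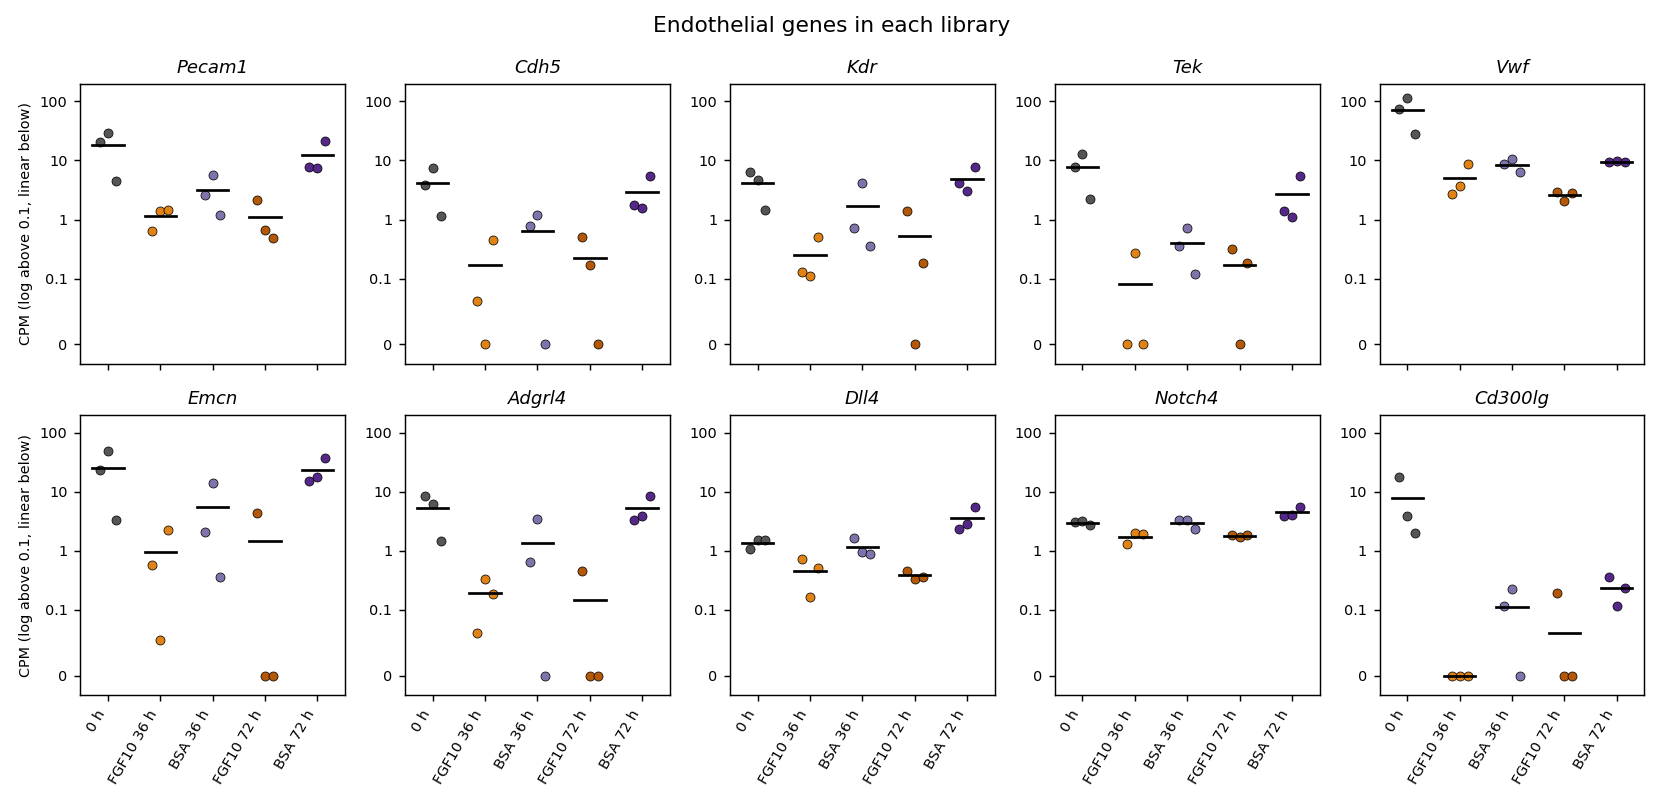
Level of each of the 10 endothelial genes in the 15 libraries, in CPM on a scale that is logarithmic above 0.1 and linear below. Points are libraries and the bar is the group mean of 3. The 2 FGF10 groups have the lowest means for every gene, and Vwf and Cd300lg stay below 0 h in BSA cultures at 72 h.

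The 2 FGF10 groups had the lowest means for all 10 genes, and their ranges overlapped for all 10. BSA 36 h came next for all 10. Its range lay clear of the next lower group only for Dll4 and Notch4. The highest mean was at 0 h for 7 genes and in BSA cultures at 72 h for Kdr, Dll4 and Notch4. Ranges of BSA 72 h and 0 h overlapped for 6 genes, with Dll4 and Notch4 clear above 0 h and Vwf and Cd300lg clear below it.

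The first comparison set FGF10 against BSA at 72 h, to ask what the factor changed beside time in culture. Of the 10 endothelial genes, 5 were lower in FGF10 cultures, namely Pecam1, Vwf, Adgrl4, Dll4 and Notch4, and none was higher. By the same test, edgeR's quasi-likelihood test with Benjamini-Hochberg adjustment at 0.05, 2.98% of the 18140 genes were lower and 5.99% were called in either direction. All 10 estimates were below 0, with a median log2 difference of -3.32, against -0.007 over all tested genes. Libraries did not overlap for 9 of the 10, all but Cd300lg, where 21.7% of all genes were lower without overlap.

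Dll4 encodes a NOTCH ligand made by arterial and sprouting endothelial cells. It had 0.449, 0.338 and 0.366 CPM in FGF10 cultures at 72 h, against 2.36, 2.83 and 5.48 CPM in BSA cultures. The 3 FGF10 libraries were all low and close together, and every BSA library was above them. The log2 difference was -3.18 ± 0.49 (SE, n = 3 each; edgeR adjusted p = 0.00332), about 9.04-fold lower. This call held in all 22 alternative fits, with adjusted p between 1.82e-06 and 0.0299.

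Notch4, a NOTCH receptor found mainly on endothelial cells, had 1.86, 1.69 and 1.83 CPM in FGF10 cultures, against 3.95, 4.01 and 5.54 CPM in BSA cultures. The groups were clear of each other with little spread inside either. The log2 difference was -1.32 ± 0.25 (SE, n = 3 each; edgeR adjusted p = 0.0104). Leaving out replicate 3 of BSA 72 h or replicate 4 of FGF10 72 h gave an edgeR adjusted p of 0.0546 to 0.0593. Notch4 was called in the other 20 of 22 fits. In FGF10 replicates 3 and 4, where Emcn and Adgrl4 had no count, Notch4 had 20 and 30 counts. Pecam1, Vwf and Dll4 also held counts in both. Which cells made the Notch4 RNA was not tested.

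Of the surface and junction genes, Pecam1 had 2.12, 0.676 and 0.487 CPM in FGF10 cultures, against 7.75, 7.48 and 21.5 CPM in BSA cultures at 72 h. FGF10 replicate 2 was the highest of its group and BSA replicate 3 the highest of all. The log2 difference was -3.46 ± 0.84 (SE, n = 3 each; edgeR adjusted p = 0.0340). The call was lost when any BSA 72 h library or replicate 3 or 4 of FGF10 72 h was left out, at adjusted p of 0.0613 to 0.168.

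Adgrl4, an adhesion G protein-coupled receptor of vessels, had 0.449, 0 and 0 CPM in FGF10 cultures, against 3.34, 3.83 and 8.54 CPM in BSA cultures. Only FGF10 replicate 2 held any count. The log2 difference was -4.98 ± 1.34 (SE, n = 3 each; edgeR adjusted p = 0.0491), and the call was lost in 11 of the 15 fits that left out 1 library, at adjusted p of 0.0531 to 0.209. Those fits left out replicate 2 of 0 h, replicate 1 of BSA 36 h, or any library of BSA 72 h, FGF10 72 h or FGF10 36 h.

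Emcn encodes endomucin, a sialomucin of venous and capillary endothelium. It had 4.43, 0 and 0 CPM in FGF10 cultures, against 15.3, 18.1 and 38.0 CPM in BSA cultures. The groups did not overlap, yet 1 library carried the whole FGF10 level, and the difference missed the threshold (log2 -3.96 ± 1.53, SE, n = 3 each; edgeR adjusted p = 0.146). Cdh5, which encodes VE-cadherin, averaged 0.227 ± 0.262 CPM in FGF10 cultures and 2.98 ± 2.22 CPM in BSA cultures (SD, n = 3 each; edgeR adjusted p = 0.0881). Cd300lg, a glycoprotein of capillary and venular endothelium, was near 0 in both groups, with 3 counts in the 3 FGF10 libraries and 13 in the 3 BSA libraries. Its ratio was 3.53-fold lower in FGF10, with a 95% counting interval of 0.971 to 19.3.

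Neither receptor tyrosine kinase passed the test at 72 h. Kdr, the main VEGF receptor, averaged 0.531 ± 0.767 CPM in FGF10 cultures and 4.95 ± 2.42 CPM in BSA cultures at 72 h (SD, n = 3 each; edgeR adjusted p = 0.0938). Tek, the angiopoietin receptor, averaged 0.168 ± 0.161 and 2.66 ± 2.45 CPM in FGF10 and BSA cultures (SD, n = 3 each; edgeR adjusted p = 0.0509). Tek sat at the threshold and passed it in 6 of 22 alternative fits. Vwf encodes von Willebrand factor, a clotting protein stored by endothelial cells. It had 2.95, 2.03 and 2.86 CPM in FGF10 cultures, against 9.54, 9.72 and 9.35 CPM in BSA cultures. Both groups were tight for this gene. Its log2 difference was -1.85 ± 0.50 (SE, n = 3 each; edgeR adjusted p = 0.0498). That call was lost in 10 of the 15 fits without 1 library, at adjusted p of 0.0578 to 0.179, namely those without any library of BSA 36 h, BSA 72 h or FGF10 72 h, or replicate 3 of FGF10 36 h. It was also lost with DESeq2 size factors. The count of 5 genes was 3 when replicate 1 of BSA 36 h, replicate 2 of FGF10 72 h or replicate 3 of FGF10 36 h was left out. It was 2 when library 2_1 or 2_2 of BSA 72 h or replicate 3 of FGF10 72 h was left out, and 1, Dll4, when the library left out was replicate 3 of BSA 72 h or replicate 4 of FGF10 72 h. With libraries 2_1 and 2_2 summed into 1, or with no filter on low counts, it was 2, Dll4 and Notch4, and Pecam1, Vwf and Adgrl4 did not pass.

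At 36 h none of the 10 endothelial genes passed the test between FGF10 and BSA (2.34% of all genes did). An unadjusted p under 0.05 was reached by 3 genes (3398 of all 18140 genes), and the Wald test of DESeq2 called 0 (1088 of all genes). All 10 estimates were again below 0, with a median log2 difference of -1.95, or -1.68 with Cd300lg at its bound, against 0.002 over all genes. Dll4 had 0.719, 0.164 and 0.506 CPM in FGF10 cultures, against 1.67, 0.953 and 0.892 CPM in BSA cultures (edgeR adjusted p = 0.151). Notch4 had 1.31, 1.97 and 1.96 CPM in FGF10 cultures, against 3.33, 3.31 and 2.32 CPM in BSA cultures (edgeR adjusted p = 0.118). These were the 2 genes whose libraries did not overlap at 36 h, while 9.53% of all genes were lower without overlap. Cd300lg had no count in FGF10 cultures and 6 counts in BSA cultures, at least 1.92-fold lower with 3 counts over the group as the floor. Of the other cell types, 1 of 9 tested immune genes (H2-Ab1) and 1 of 9 tested adipocyte genes (Lep) were lower at 36 h, and no pericyte or fibroblast gene passed. Lep had no count in FGF10 cultures at 36 h and 0.582 ± 0.210 CPM in BSA cultures (SD, n = 3 each).

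The change of the FGF10 effect between 36 h and 72 h was tested as an interaction. It passed for 0 of the 10 genes and for 0.0% of all genes by edgeR. At an unadjusted p under 0.05 there were 1 endothelial gene, Dll4, and 998 genes in all, and DESeq2 called 0 endothelial genes and 18 genes in all. The interaction estimate for Dll4 was -1.83 ± 0.71 on the log2 scale (SE; edgeR adjusted p = 0.856). The larger difference at 72 h was therefore not shown to differ from that at 36 h.

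**Figure D2:**
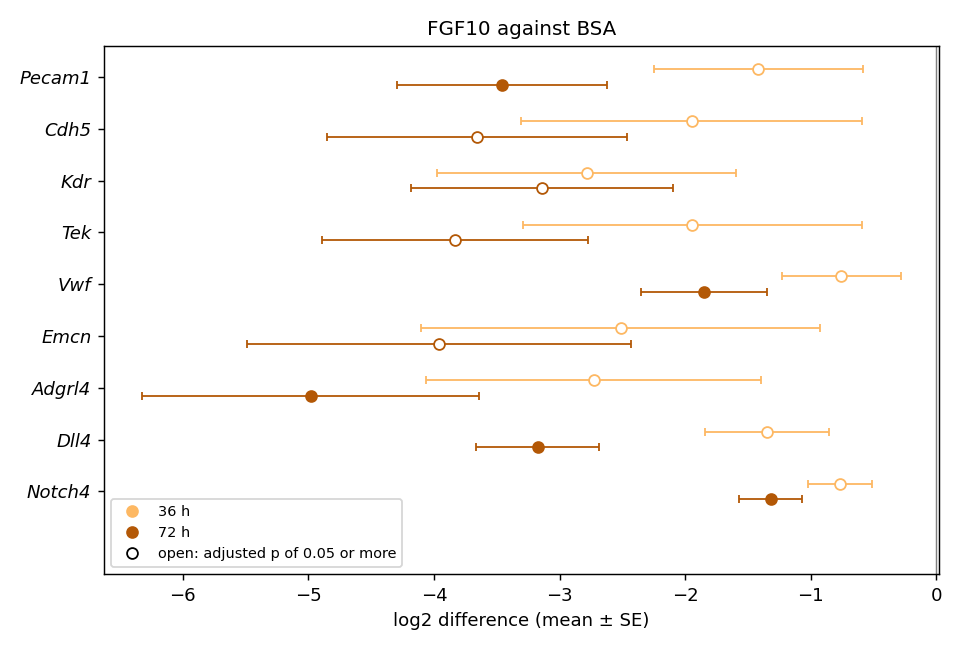
Log2 difference of FGF10 against BSA at 36 h (light) and 72 h (dark) for 9 of the endothelial genes, with standard errors from the edgeR fit (n = 3 each). Filled points passed an adjusted p of 0.05; Cd300lg is left out because an FGF10 group held 3 counts or none. All points lie below 0 and the filled ones are all at 72 h.

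Markers of other cells moved in the same comparison at 72 h. Of 9 tested immune genes, 8 were lower in FGF10 cultures, and the list's summed level was 85.8 to 146 CPM in FGF10 cultures, against 374 to 467 CPM in BSA cultures. Of 9 tested adipocyte genes, 5 were lower, with sums of 11.3 to 74.8 CPM in FGF10 cultures and 427 to 434 CPM in BSA cultures. Fabp4, which capillary endothelium also makes, gave 14 of the mean sum of 36.5 CPM in FGF10 and 272.9 of 429.5 CPM in BSA cultures. Of the adipocyte genes, Adipoq, the hormone adiponectin, averaged 0.919 CPM in FGF10 and 21.2 CPM in BSA cultures. No pericyte gene of 9 tested and no fibroblast gene of 10 was lower, although the median log2 difference of these lists was -2.30 and -1.98. The fibroblast gene Fbln1, which encodes a matrix protein, was higher, at 23.1 CPM in FGF10 and 7.5 CPM in BSA cultures. Of 10 tested epithelial genes, 3 were higher (Krt14, Krt5 and Krt19) and 1 was lower, Elf3, an ETS factor of epithelium, at 31.8 CPM in FGF10 and 60.9 CPM in BSA cultures (edgeR adjusted p = 0.00944). The sum of epithelial genes was 31460 to 36970 CPM in FGF10 and 17630 to 19320 CPM in BSA cultures, with Krt14, a keratin of basal cells, at 11960 and 3666 CPM (FGF10 and BSA). CPM are shares of a library, and the part of these other cells in the endothelial differences was not tested. At 0 counts were Cd3e among the immune genes in FGF10 cultures at 72 h and none of the pericyte, fibroblast or adipocyte genes.

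**Figure D3:**
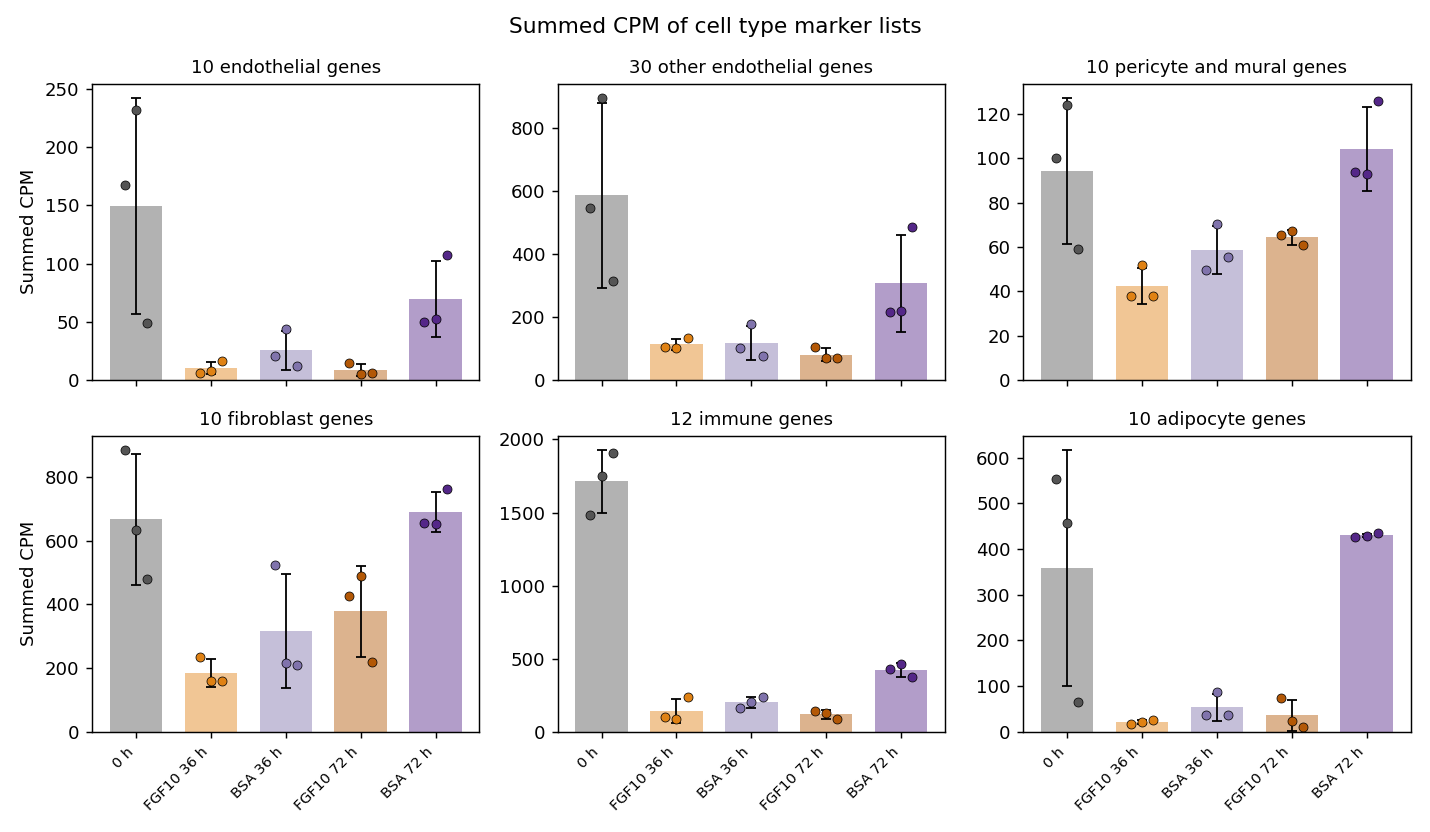
Summed CPM of 6 marker lists in each library (points), with the group mean (bar from 0) and SD (line, n = 3). At 72 h the endothelial, immune and adipocyte sums of the FGF10 libraries lie below those of every BSA library, and so do the pericyte and fibroblast sums, by less.

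A second list of 30 endothelial genes, of which 29 were tested, was read in the same way for FGF10 against BSA. At 72 h, 3 were lower (Sox17, Fli1 and Aqp1), 28 of 29 estimates were below 0, and the median log2 difference was -3.10. Fli1, an ETS transcription factor of endothelial and blood cells, averaged 0.630 ± 0.178 CPM in FGF10 and 4.56 ± 1.95 CPM in BSA cultures (SD, n = 3 each; edgeR adjusted p = 0.0162). Sox17, a transcription factor of arterial endothelium, had 1 count in FGF10 and 73 counts in BSA cultures, over 3 libraries each (edgeR adjusted p = 0.0145). Aqp1, a water channel of capillary endothelium, averaged 0.141 ± 0.0702 CPM in FGF10 and 4.73 ± 1.57 CPM in BSA cultures (SD, n = 3 each; edgeR adjusted p = 0.0445). All 3 calls were lost when replicate 3 of BSA 72 h or replicate 3 or 4 of FGF10 72 h was left out. That of Sox17 was also lost without library 2_2 of BSA 72 h, and that of Aqp1 without any library of BSA 72 h, FGF10 72 h or FGF10 36 h. Where lost, the edgeR adjusted p was 0.0527 to 0.0990 for Sox17, 0.0630 to 0.102 for Fli1 and 0.0520 to 0.201 for Aqp1. At 36 h 0 of the 29 passed, 26 estimates were below 0 and 3 above. The summed level of this list overlapped at 36 h, at 100.1 to 132.5 CPM in FGF10 and 74.4 to 176.4 CPM in BSA cultures. Podxl went the other way there, with means of 62.1 CPM in FGF10 and 36.8 CPM in BSA cultures. At 72 h the sum was 68.0 to 103.9 CPM in FGF10 and 213.9 to 484.4 CPM in BSA cultures.

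The next comparisons set the later cultures against 0 h. They share the 0 h libraries, so the values below are given side by side. In FGF10 cultures at 36 h all 10 endothelial genes were lower than at 0 h (20.5% of all genes were), with a median log2 difference of -4.33. In FGF10 cultures at 72 h 8 were lower, all but Kdr and Emcn (16% of all genes). In BSA cultures at 36 h 4 were lower, namely Pecam1, Tek, Vwf and Cd300lg (14.4% of all genes). In BSA cultures at 72 h 2 were lower, Vwf and Cd300lg (13% of all genes), and 1 was higher, Dll4 (12.2% of all genes). Each of these 4 counts of lower genes includes Cd300lg. That gene passed the filter on low counts only through 0 h, so its lower call was partly built in. The median log2 difference over the 10 was -4.08 for FGF10 72 h, -2.36 for BSA 36 h and -0.26 for BSA 72 h, against -0.018 to 0.011 over all genes.

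Libraries lay clear below 0 h for 10 of the 10 in FGF10 36 h (23.3% of all genes), for 3 in BSA 36 h (20.6%) and for 9 in FGF10 72 h (24% of all genes), where Emcn overlapped. In BSA 72 h they lay clear below 0 h for 2 (23.5% of all genes) and clear above it for 2, Dll4 and Notch4 (21.9%). Cd300lg is among the genes clear below 0 h in each group, with the same limit.

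Vwf had 2.68, 3.73 and 8.60 CPM in FGF10 cultures at 36 h and 8.62, 10.4 and 6.30 CPM in BSA cultures at 36 h, against 74.3, 114 and 28.4 CPM at 0 h. With the 72 h values given above, every later library was below every 0 h library. Its log2 difference from 0 h was -3.85 ± 0.50 for FGF10 36 h, -3.09 ± 0.48 for BSA 36 h, -4.77 ± 0.53 for FGF10 72 h and -2.92 ± 0.47 for BSA 72 h (SE, n = 3 each). The edgeR adjusted p was at most 0.000703, and all 4 calls held in every alternative fit, at adjusted p of up to 0.0163.

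Cd300lg was lower than at 0 h in each of the 4 later groups. It had at most 0.359 CPM in any later library, against 18, 3.87 and 2.04 CPM at 0 h. The 2 ranges did not overlap, but replicate 1 held 426 of the 503 counts at 0 h, so the size of the difference rests largely on that library. FGF10 cultures at 36 h had no count. With 3 counts over the group as the floor and counts pooled over libraries, that was at least 159-fold lower than at 0 h, at least 131-fold by the mean CPM of 0 h, and at least 44.4-fold without replicate 1 of 0 h. FGF10 cultures at 72 h had 3 counts, a pooled ratio of 141-fold lower with a 95% counting interval of 47.9 to 685, or 39.5-fold with an interval of 13 to 196 without replicate 1 of 0 h. The log2 difference from 0 h was -6.03 ± 1.05 for BSA 36 h (edgeR adjusted p = 0.00151) and -5.03 ± 0.95 for BSA 72 h (SE, n = 3 each; edgeR adjusted p = 0.00257). Without replicate 1 of 0 h it was -4.57 for BSA 36 h, -5.28 for FGF10 72 h and -3.57 for BSA 72 h. No alternative fit lost any of the 4 calls. Cd300lg had 426, 40 and 37 counts at 0 h and at most 7 in any later library. It therefore passed the filter on low counts only through 0 h, so a lower later level was partly built in. The stability of its calls is not separate support.

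Dll4 moved in both directions. It had 1.06, 1.55 and 1.54 CPM at 0 h, above every FGF10 library and below every BSA library at 72 h. Its log2 difference from 0 h was +1.38 ± 0.42 for BSA 72 h (SE, n = 3 each; edgeR adjusted p = 0.0269) and -1.80 ± 0.51 for FGF10 72 h (SE, n = 3 each; edgeR adjusted p = 0.0146). The higher call for BSA 72 h was lost when replicate 1 or 4 of 0 h or replicate 3 of BSA 72 h was left out, at adjusted p of 0.0522 to 0.170. The lower call for FGF10 72 h was lost without replicate 4 of that group, at 0.0538. Notch4 had 3.13, 3.19 and 2.70 CPM at 0 h, also between the groups at 72 h. It was lower in FGF10 72 h (log2 -0.74 ± 0.26, SE, n = 3 each; edgeR adjusted p = 0.0413), a call lost without any library of 0 h or FGF10 72 h or without library 2_2 of BSA 72 h, at 0.0537 to 0.110. Notch4 kept that call in 11 of 22 alternative fits, and the highest edgeR adjusted p among the fits that lost it was 0.1515. In BSA 72 h Notch4 did not pass (log2 +0.58 ± 0.24, SE, n = 3 each; edgeR adjusted p = 0.0962).

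Emcn, Adgrl4 and Kdr were close to their starting level in BSA cultures at 72 h. Emcn had 23.5, 48.3 and 3.36 CPM at 0 h, and its BSA 72 h libraries fell inside that range (log2 -0.058 ± 1.26, SE, n = 3 each; edgeR adjusted p = 0.981). Adgrl4 averaged 5.24 ± 2.88 CPM in BSA 72 h and 5.42 ± 3.61 CPM at 0 h, and Kdr 4.95 ± 2.42 and 4.21 ± 2.56 CPM (SD, n = 3 each). The wide spread at 0 h leaves room for several-fold differences in either direction. In FGF10 cultures at 72 h Adgrl4 was lower than at 0 h (log2 -5.04 ± 1.34, SE, n = 3 each; edgeR adjusted p = 0.0136), a call lost without replicate 3 or 4 of FGF10 72 h, at 0.0514 to 0.0585. Kdr and Emcn were also lower in level there, but their adjusted p was 0.0530 and 0.0700 by edgeR.

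Tek was lower than at 0 h in both groups at 36 h. It had 0, 0.274 and 0 CPM in FGF10 cultures and 0.357, 0.728 and 0.119 CPM in BSA cultures at 36 h, against 7.65, 13 and 2.26 CPM at 0 h. All libraries at 36 h were below all 0 h libraries, and the 5 counts of FGF10 36 h were all in replicate 3. Its log2 difference from 0 h was -6.14 ± 1.11 in FGF10 and -4.19 ± 0.92 in BSA cultures (SE, n = 3 each), with an edgeR adjusted p of 0.000923 and 0.00459 (FGF10 and BSA). Leaving out 1 library, the FGF10 estimate ran from -9.97 to -5.55, the lowest without replicate 3 of FGF10 36 h, and kept its call. Pecam1 was lower in FGF10 cultures at 36 h and 72 h (log2 -3.95 ± 0.83 and -4.03 ± 0.85, SE, n = 3 each) in every alternative fit. Its call in BSA cultures at 36 h (log2 -2.54 ± 0.76, SE, n = 3 each; edgeR adjusted p = 0.0261) was lost without replicate 1 or 2 of 0 h or replicate 1 or 3 of BSA 36 h, at 0.0503 to 0.0904. Cdh5 was lower in FGF10 cultures at 36 h (log2 -4.59 ± 1.23) and at 72 h (log2 -4.13 ± 1.19, SE, n = 3 each), and the call at 72 h was lost without replicate 2 of 0 h or replicate 3 or 4 of FGF10 72 h, at 0.0607 to 0.0754.

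The count of 10 for FGF10 36 h was 7 to 9 without any 1 library of FGF10 36 h or 0 h, or library 2_2 of BSA 72 h. Over all genes, the 15 fits without 1 library called 5875 to 7464 for FGF10 36 h, in either direction. Kdr was lost there without replicate 1 or 3 of FGF10 36 h, at adjusted p of 0.0528 to 0.0575. Dll4 was lost without replicate 4 of 0 h or replicate 3 of FGF10 36 h, at 0.0556 to 0.0739, and Notch4 without replicate 1 or 2 of 0 h or replicate 1 of FGF10 36 h, at 0.0598 to 0.0996. Emcn was lost without replicate 1 or 2 of 0 h, library 2_2 of BSA 72 h or any FGF10 36 h library, at 0.0517 to 0.109. The count of 8 for FGF10 72 h was 5 without replicate 3 of that group and 4 without its replicate 4. The last of these fits called 3952 of all genes. Immune genes were lower beside the endothelial ones, 7 of 9 tested in each FGF10 group and in BSA 36 h. The shares of all genes were 20.5% in FGF10 36 h, 16% in FGF10 72 h and 14.4% in BSA 36 h. In BSA 72 h 4 of the immune genes were lower and 2 were higher (13% and 12.2% of all genes). The immune sum of 1480 to 1910 CPM at 0 h was above all later libraries (85.8 to 467 CPM). Most of its mean of 1713 CPM at 0 h was Cd74 (1214 CPM) and H2-Ab1 (315 CPM), with Ptprc at 6.99 and Csf1r at 13.6 CPM. Of 9 tested adipocyte genes, 2 were lower in each FGF10 group, while 1 was higher in BSA 36 h and 5 in BSA 72 h. Of 10 tested fibroblast genes, 8 were lower in FGF10 36 h and 6 in FGF10 72 h, with 1 higher in each. In BSA cultures 6 fibroblast genes were lower at 36 h and 3 at 72 h. The part of other cells in these differences was not tested.

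**Figure D4:**
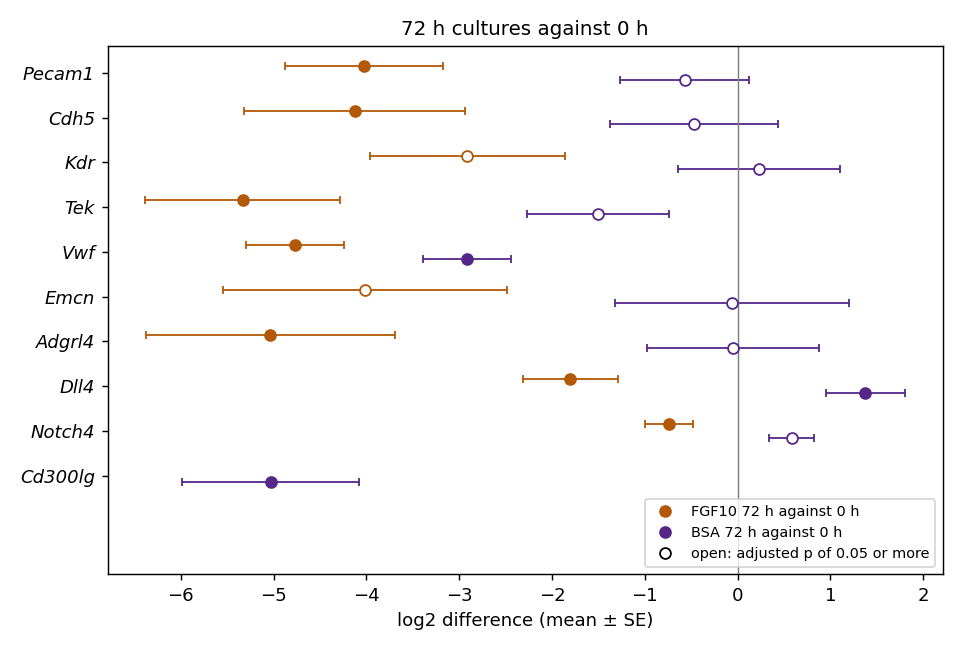
Log2 difference of FGF10 72 h and of BSA 72 h against 0 h, with standard errors from the edgeR fit (n = 3 each); filled points passed an adjusted p of 0.05. The FGF10 point of Cd300lg is left out because it rests on 3 counts. FGF10 points lie at -0.74 or below, while BSA points spread from -5.03 for Cd300lg to 1.38 for Dll4.

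Within each arm, 72 h was set against 36 h. In BSA cultures all 10 estimates were above 0, with a median log2 difference of 1.76, but 0 passed by edgeR (0.469% of all genes did). An unadjusted p under 0.05 was reached by 4 genes, Pecam1, Tek, Dll4 and Notch4, and by 2904 of all 18140 genes. DESeq2 called 2 of them, Tek and Dll4, and 584 of all genes. Libraries did not overlap for 6 of the 10, where 14.3% of all genes were higher without overlap. Vwf averaged 9.54 ± 0.185 CPM at 72 h and 8.45 ± 2.06 CPM at 36 h in BSA cultures (SD, n = 3 each; edgeR adjusted p = 0.887), with the smallest log2 estimate of the 10, 0.17. In FGF10 cultures 6 estimates were above 0 and 4 below, with a median of 0.25, and 0 passed by edgeR (1.91% of all genes). All 10 ranges overlapped there, where 11.2% of all genes were higher and 9.9% lower without overlap. In FGF10 cultures the count at an unadjusted p under 0.05 and the DESeq2 count were also 0, against 3048 and 779 of all genes.

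The mix of the 10 genes differed between BSA cultures at 72 h and the start, as a description with no test. Vwf made up 15.5% ± 5.90 of the summed CPM in BSA cultures at 72 h and 50.6% ± 7.02 at 0 h, and Emcn 33.7% ± 2.58 and 13.9% ± 6.96 (SD, n = 3 each). For both genes the 3 shares of BSA 72 h lay outside the range at 0 h. Libraries 2_1 and 2_2 of BSA 72 h, which may share a culture, had Vwf shares of 19.1% and 18.7%, against 8.7% in replicate 3. In FGF10 cultures at 72 h, Vwf held 36.6% ± 14.8 and Notch4 26.0% ± 11.7, while Notch4 held 2.92% ± 2.26 at 0 h (SD, n = 3 each). Notch4 had the smallest log2 difference from 0 h in these cultures, -0.74, and a larger share of a smaller sum. Per kilobase of exon, which allows levels of different genes to be compared, Emcn and Vwf had the highest means at 0 h, 4.63 and 4.50 CPM per kilobase, but no gene led in every library: Cd300lg led in replicate 1 with 6.58, Emcn in replicate 2 with 8.93 and Vwf in replicate 4 with 1.77 CPM per kilobase. In BSA cultures at 72 h Emcn led in all 3 libraries, with a mean of 4.41 CPM per kilobase, followed by Pecam1 with 1.97 and Dll4 with 0.924, and Vwf came 6th with 0.594. In FGF10 cultures at 72 h the mean was 0.273 CPM per kilobase for Emcn and 0.222 for Notch4, but Emcn had 0.818 CPM per kilobase in replicate 2 and no count in replicates 3 and 4, where Notch4 led with 0.210 and 0.227.

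**Figure D5:**
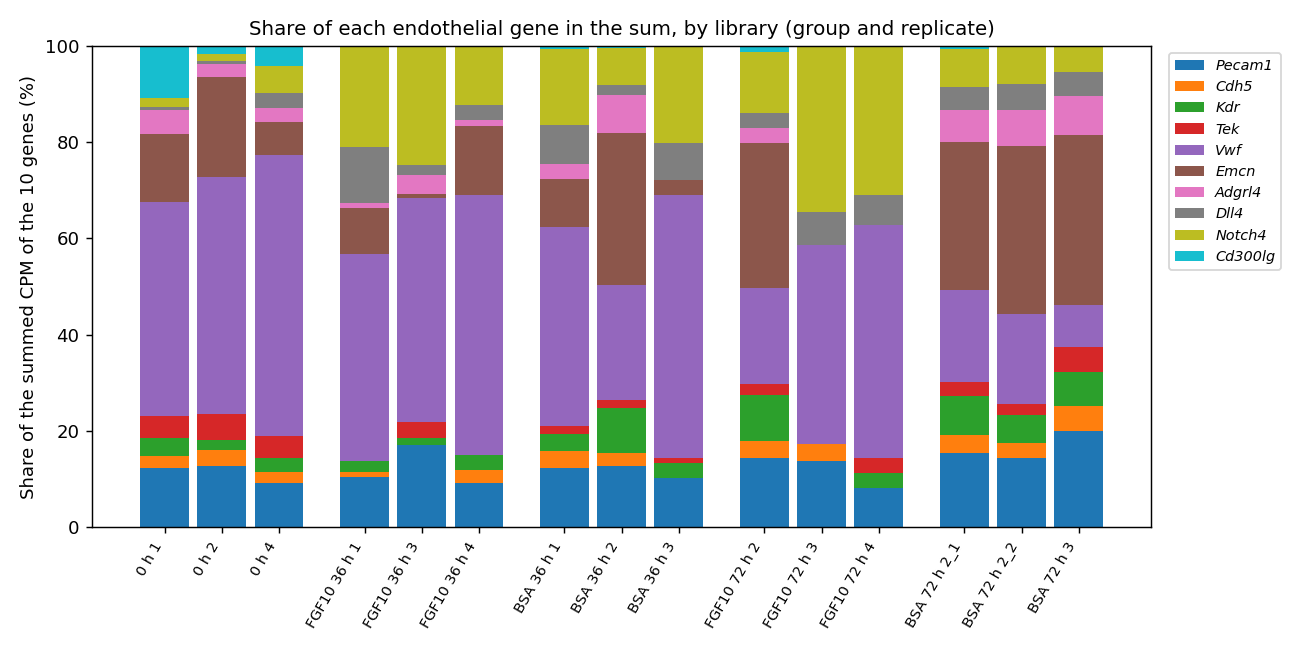
Share of each of the 10 endothelial genes in their summed CPM, in percent, for every library, named by group and replicate. Vwf has the largest share in the 3 libraries at 0 h and Emcn in the 3 BSA 72 h libraries, and Notch4 holds more in every FGF10 library than at 0 h.

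The ligands and co-receptors of these receptors were read from a list of 13 genes, 12 of them tested. For FGF10 against BSA, 1 was higher at 36 h, Jag1, a NOTCH ligand that epithelium also makes, at 37.9 ± 8.05 CPM in FGF10 and 20.8 ± 3.22 CPM in BSA cultures (SD, n = 3 each; edgeR adjusted p = 0.0205). That call was lost without replicate 2 or 3 of BSA 36 h or replicate 1 of FGF10 36 h, at 0.0725 to 0.0973. At 72 h 1 was lower, Nrp1, a VEGF co-receptor, at 1.69 ± 0.227 CPM in FGF10 and 9.50 ± 3.18 CPM in BSA cultures (SD, n = 3 each; edgeR adjusted p = 0.0239). Nrp1 lost its call without any library of BSA 72 h or FGF10 72 h, at 0.0505 to 0.112. Against 0 h, 1 was higher and 5 were lower in FGF10 36 h, 3 and 3 in BSA 36 h, 4 and 3 in FGF10 72 h, and 4 and 1 in BSA 72 h. Of all 18140 genes, 7225, 4916, 5417 and 4568 were called in either direction in the same order of groups. Vegfa, which encodes the main ligand of the Kdr product, was higher than at 0 h in BSA cultures at 36 h and 72 h, at 74.1 and 71.1 CPM, against 20.9 CPM at 0 h (edgeR adjusted p = 0.00144 and 0.00184). Vegfd, which in the mouse binds the receptor of lymphatic endothelium, was higher in BSA cultures at 72 h, at 10.2 ± 1.09 CPM against 1.12 ± 0.937 CPM at 0 h (SD, n = 3 each; edgeR adjusted p = 0.000880). These Vegfa and Vegfd calls held in all 22 alternative fits. Neither gene passed between FGF10 and BSA at 36 h or at 72 h, so a difference between the arms was not shown.

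Of 12 genes that act with or downstream of NOTCH in endothelium, 0 passed between FGF10 and BSA at 36 h or at 72 h by edgeR. The median log2 difference was 0.09 at 36 h and -0.07 at 72 h, with 7 and 6 estimates above 0. Most of these genes are also used by epithelium. Hes1, a common NOTCH target, averaged 102 ± 12.1 CPM in FGF10 and 101 ± 11.5 CPM in BSA cultures at 72 h (SD, n = 3 each). Against 0 h, 2 of the 12 were higher and 2 lower in FGF10 36 h, 1 and 3 in BSA 36 h, 3 and 1 in FGF10 72 h, and 1 and 2 in BSA 72 h. Of all 18140 genes, 7225, 4916, 5417 and 4568 were called in either direction in the same order of groups. The counts of this list were thus not set apart from those of all genes. Gja4, a connexin of arterial endothelium, was lower than at 0 h in all 4 later groups, at 0.548 and 0.538 CPM in FGF10 and BSA cultures at 36 h, 0.489 and 1.21 CPM at 72 h, and 5.80 CPM at 0 h. Its call for BSA 72 h was lost without replicate 2 of 0 h or library 2_1 or 2_2 of BSA 72 h, at adjusted p of 0.0701 to 0.0843. Notch1, a NOTCH receptor shared by epithelium, was higher than at 0 h in BSA cultures at 72 h, at 80.7 against 46.4 CPM (edgeR adjusted p = 0.0185), and was lost without replicate 1 or 4 of 0 h or library 2_2 or replicate 3 of BSA 72 h, at 0.0511 to 0.0642. It was also higher in FGF10 cultures at 72 h, at 72.8 against 46.4 CPM (edgeR adjusted p = 0.0432), a call lost without replicate 1 or 4 of 0 h, replicate 3 of BSA 36 h or any library of BSA 72 h or FGF10 72 h, at 0.0528 to 0.121.

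The second endothelial list was also set against 0 h. Of its 29 tested genes, 24 were lower in FGF10 36 h, 13 in BSA 36 h, 18 in FGF10 72 h and 4 in BSA 72 h, and none was higher. The 4 were Podxl, Ptprb, Eng and Aqp1. Over all genes, 20.5%, 14.4%, 16% and 13% were lower in the same order of groups. Podxl, a sialomucin that mammary epithelium can also make, averaged 28.0 ± 2.13 CPM in BSA 72 h and 162 ± 50.2 CPM at 0 h (SD, n = 3 each; edgeR adjusted p = 1.12e-06). Ptprb, a phosphatase that acts on VE-cadherin and on the product of Tek, averaged 1.61 ± 1.08 CPM in BSA 72 h and 15.8 ± 11.2 CPM at 0 h (SD, n = 3 each; edgeR adjusted p = 0.00879). Eng, a TGF-beta co-receptor of endothelium, lost its call without library 2_1 or 2_2 of BSA 72 h, at 0.0548 to 0.0552, and Aqp1 without these or replicate 2 of 0 h, at 0.0669 to 0.0715. Podxl was also lower in FGF10 72 h than in FGF10 36 h, at 27.4 against 62.1 CPM (edgeR adjusted p = 0.00762), a call lost without replicate 3 of FGF10 72 h, at 0.0514.

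Pericytes wrap small vessels, and their genes were read beside the endothelial ones. Of 9 tested, 9 were lower than at 0 h in FGF10 36 h, 2 in BSA 36 h, 3 in FGF10 72 h and 0 in BSA 72 h. The shares of all genes were 20.5%, 14.4%, 16% and 13% in the same order. Rgs5, a defining pericyte gene, averaged 0.395 ± 0.345 CPM in FGF10 36 h, 2.06 ± 0.738 CPM in BSA 36 h, 1.48 ± 0.391 CPM in FGF10 72 h and 4.24 ± 0.539 CPM in BSA 72 h, against 8.22 ± 6.07 CPM at 0 h (SD, n = 3 each). Its call in BSA 36 h was lost without replicate 1 or 2 of 0 h or replicate 1 or 3 of BSA 36 h, at adjusted p of 0.0851 to 0.101 (edgeR). Pdgfrb, the receptor for platelet-derived growth factor on pericytes and fibroblasts, averaged 1.08 ± 0.688 CPM in FGF10 72 h, 7.01 ± 3.80 CPM in BSA 72 h and 9.08 ± 6.17 CPM at 0 h (SD, n = 3 each). Its call in FGF10 72 h was lost without replicate 2 of 0 h or replicate 3 or 4 of FGF10 72 h, at 0.0807 to 0.10. Mcam, which epithelium can also make, was the 1 pericyte gene higher in BSA 72 h than at 0 h, at 29.2 and 14.5 CPM, and was lost without replicate 4 of 0 h or replicate 3 of BSA 72 h, at 0.0559 to 0.0810.

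Over the 15 libraries, the levels of other genes were compared with the summed level of the 10 on the log2 scale, as a description in which libraries of a group share their treatment. Of 13737 protein-coding genes ranked, the 8 most alike were Meox2, Plvap, Gimap1, Clec14a, Ccdc3, Robo4, Esam and Gpr4, with Pearson's r of 0.960 to 0.975 and Spearman's rho of 0.929 to 0.979. Of these, Plvap, Clec14a, Robo4 and Esam were in the second endothelial list. Plvap, a protein of the diaphragms of endothelial pores, had 0.731 to 6.42 CPM in FGF10 72 h, 29.9 to 67.0 CPM in BSA 72 h and 15.1 to 173 CPM at 0 h. Meox2, a homeobox gene, had the highest r and averaged 0.171 CPM in FGF10 72 h, 3.02 CPM in BSA 72 h and 6.82 CPM at 0 h.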

How the data were processed

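Messenger RNA of 15 samples was sequenced from strand-marked libraries, per the labels' protocols. The values used are raw counts, deposited by the authors as 1 table written by featureCounts 2.0.1, which counted fragments over exons by gene name without regard to strand, per the file headers. The submitters' processing notes name GRCm39, HISAT2 2.2.1, cutadapt 1.9.1, DESeq2, HTSeq and FastQC, with no order. Low genes were removed by filterByExpr at a minimum count of 10 and a minimum total of 15, which took out 36316 of 54456 genes, and the rest were scaled to CPM with TMM. One robust quasi-likelihood fit of edgeR 4.0.16 (R 4.3.3) to the 5 groups gave 10 residual degrees of freedom, a common biological coefficient of variation of 0.234 and 9 contrasts. A call is an adjusted p under 0.05 (Benjamini-Hochberg, 18140 genes). Each standard error was taken as the log2 difference divided by the root of its F value. The fit was also run on simulated data, with 1 mean per gene over all libraries and changes only in FGF10 72 h. That setting is unlike genes that are near 0 in a group, so it is not used as support here.

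For the 10 genes, a group at 0 counts is given a floor of 3 counts over the group. A group at 1 to 3 counts is given a ratio with an exact 95% interval, and both cover counting error only. Genes of the other lists at such counts are given without a fold. The members and lists were chosen with earlier results of these data known. Named beside the 10 genes were every called gene of a list with up to 4 calls in a contrast, otherwise from the 4 with the smallest p, and the 8 genes whose log2 CPM had the highest Pearson correlation with the log2 sum. Not every gene that met this rule is printed. The adipocyte sum at 0 h was mostly Fabp4 (342 CPM), which capillary endothelium also expresses.

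Alternatives were DESeq2 size factors, no filter, at least 10 counts in at least 3 libraries, replicate numbers as a block, the libraries 2_1 and 2_2 summed, only the groups compared, the Wald test of DESeq2 1.42.0 and leaving out 1 library. The mean chi-square per gene between the counts of 2_1 and 2_2 was 4.32, against 9.58 and 11.7 for the other BSA 72 h pairs, and both libraries were kept.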

Additional observations from a re-analysis of the deposited data

How the results depend on the processing

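Of the 90 results for the 10 genes, 1964 alternative values were computed, of which 1819 kept direction and side of the threshold, 85 lost a call, 20 gained one and 40 turned direction, none of these for a called result. For FGF10 against BSA at 72 h, 5 genes were called; without a filter, with the replicate block and with 2_1 and 2_2 summed it was 2 each, Dll4 and Notch4, and leaving out 1 library gave 1 to 6. For BSA 72 h against BSA 36 h, 0 were called. With only the groups compared it was 1 (1182 genes in all) and with DESeq2 2 (584 in all). Leaving out 1 library gave 4 to 9 for FGF10 72 h against 0 h, with 3952 to 6588 genes in all. The numbers did not meet the rule that every same-numbered pair correlate above 0.1: 9 of 21 did (r -0.158 to 0.449), against 10 of 69 pairs with different numbers (r -0.293 to 0.202). The replicate block is therefore given only here. It called 9 of 10 genes for FGF10 36 h, 7 for FGF10 72 h and 3 for BSA 72 h against 0 h. Over all 18140 genes it called 7580, 5994 and 4128 in these comparisons, in either direction. Over all genes, FGF10 against BSA at 72 h called 1087, with 277 for 2_1 and 2_2 summed, 1977 for DESeq2, 5025 for only the groups compared and 148 to 1950 without 1 library; at 36 h it called 425, with 1088, 78 and 127 to 852 for the last 3. BSA 72 h against BSA 36 h called 85 genes, with 0 for the sum, 217 with no filter and 0 to 569 without 1 library.

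Directions turned only where the difference did not pass. The replicate block gave log2 0.091 for Emcn in BSA 72 h against 0 h, and -0.620 for Emcn and 0.016 for Dll4 in FGF10 72 h against FGF10 36 h. With 2_1 and 2_2 summed, BSA 72 h against 0 h was 0.137 for Emcn and 0.148 for Adgrl4. Without 1 library, the log2 difference of BSA 72 h from 0 h ran from -1.275 to 0.219 for Cdh5, -0.230 to 0.722 for Kdr, -0.585 to 0.816 for Emcn and -0.596 to 0.486 for Adgrl4, and that of BSA 36 h from -0.109 to 0.147 for Notch4. For FGF10 72 h against FGF10 36 h it ran from -1.020 to 0.302 for Pecam1, -1.104 to 2.654 for Cdh5, -1.179 to 2.149 for Kdr, -7.011 to 2.312 for Emcn, -4.805 to 0.293 for Adgrl4, -0.652 to 0.227 for Dll4 and -0.134 to 0.134 for Notch4. The change of the FGF10 effect ran from -3.272 to 0.487 for Cdh5, -2.687 to 0.643 for Kdr, -2.636 to 1.948 for Tek, -9.129 to 0.195 for Emcn and -0.999 to 2.945 for Cd300lg. The cause of these changes was not tested. Cd300lg in FGF10 72 h against FGF10 36 h has no value without replicate 2 of FGF10 72 h, since both groups are then at 0. Most genes here had few counts in FGF10 libraries, which limits the precision of their folds. The folds of Cd300lg by mean CPM and without 1 library of 0 h were chosen after seeing the data.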

Other observations

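Other cells of vessels and blood were read from 2 further lists. Of 6 lymphatic endothelial genes, 2 were tested, and Prox1, the transcription factor that defines lymphatic endothelium, was lower in BSA 36 h than at 0 h, at 0.155 ± 0.0899 and 1.13 ± 0.527 CPM (SD, n = 3 each; edgeR adjusted p = 0.0255). That call was not read under the alternative fits. Between FGF10 and BSA neither of the 2 passed. Their log2 estimates were 0.91 and 1.2 at 36 h, opposite in sign to the 10 endothelial genes, and -0.23 and 0.25 at 72 h. Mmrn1 had 21 counts at 0 h, all in 1 library, and none in the 4 later groups. Most of the lymphatic sum was Reln, which other cells also express, with 5.07 ± 0.763 CPM in BSA 72 h and 13.2 ± 9.94 CPM at 0 h (SD, n = 3 each).

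Of 6 erythroid genes, 5 were tested and all 5 were lower than at 0 h in each of the 4 later groups. Their sum was 1.42 to 3.92 CPM over all later libraries and 43.3 to 133 CPM at 0 h. Hba-a2, Hbb-bs and Hbb-bt averaged at most 0.118 CPM in any later group and passed the filter on low counts only through 0 h. Hba-a1, an alpha globin with a near-identical copy, averaged 0.328 ± 0.0853 CPM in FGF10 72 h, 0.351 ± 0.104 CPM in BSA 72 h and 48.8 ± 29.4 CPM at 0 h (SD, n = 3 each). Unlike the sum of the 10 endothelial genes, the erythroid sum of BSA 72 h, 1.5 to 2.36 CPM, overlapped that of FGF10 72 h, 1.54 to 1.94 CPM. No difference between the lists was tested.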
